A study of Mus musculus with 11 samples.

Results

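Heat shock proteins and molecular chaperones were followed across 11 mouse RNA samples, each hybridised on 1 array against a mouse embryo reference. The set held the 52 genes, of 7114 named genes on the arrays, whose symbol starts with Hsp, Dnaj, Pdia, or Cct and a number, or is Tcp1: 18 Hsp genes, 23 Dnaj genes, 7 subunits of the CCT chaperonin and 4 Pdia genes. They were read by 99 probes, and 28 of the 52 had more than 1 probe. By the compartment in which the protein works, 30 were placed as cytosolic or nuclear, 13 as endoplasmic reticulum (ER), 7 as mitochondrial and 2 in none. The last were Hspg2, which encodes the matrix proteoglycan perlecan and is no chaperone but carries the letters of the rule, and Hspbap1, whose product binds a small heat shock protein.

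Chaperones bind unfolded or partly folded proteins and let them reach their native form. HSP70 proteins do so with ATP and with J proteins (the Dnaj genes), which bring substrates and start ATP hydrolysis, while HSP90 acts on later folding steps of kinases and receptors, and the ring-shaped CCT chaperonin folds actin and tubulin. Heat shock factor raises the cytosolic genes when proteins denature, whereas the unfolded protein response raises the ER genes when secretory proteins accumulate there. Pdia enzymes form and exchange disulfide bonds in the ER, and mitochondrial HSP60, HSP10 and HSP70 fold proteins imported into the matrix.

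The samples were named NRAS_MEL, HRAS_MEL, D6_MEL and Melan A, where MEL is taken to stand for melanocyte after the title of the series, VA_MEF and 3T3, taken as fibroblasts, VA_475, whose cell type the labels do not give, and the organs Kidney, Liver, Lung and Heart. The descriptions name D6_MEL by a code, NRAS_MEL by the same code with Nras added, and HRAS_MEL, VA_MEF and VA_475 by other codes. No promoter, allele, clone, strain, age or treatment is given, and all 11 arrays share the embryo reference. Every group had 1 array, so a single array carries no error of its own. In bulk RNA, fewer cells of a type and less RNA per cell cannot be told apart.

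Values are log2 ratios of a sample's own RNA over the embryo reference, relative to the median of all probes on that array, so that 1 stands for 2-fold. Base 2 is assumed and the direction is likely, not stated; in the other direction every sign turns. A ratio compares 1 gene between samples and does not rank the abundance of different genes. Marker genes went against several labels. The liver markers Alb, Ttr and Apoa1, 3 of 10 written, had a median of 2.54 on the array labelled Lung and -5.25 on the array labelled Liver. The lung marker Sftpd, 1 of 8, stood at 5.75 on the array labelled Liver and -1.25 on the array labelled Lung. The heart markers Nppb and Fabp3, 2 of 10, had a median of 3.77 on the array labelled Melan A and -0.96 on the array labelled Heart, and the kidney marker Lrp2, 1 of 9, stood at 5.60 on Kidney. On VA_MEF, 4 measured melanocyte markers of 11 (Mlph, Rab38, Kit, Ednrb) had a median of 0.71, against -1.46 to 0.29 elsewhere. They had -0.56 on NRAS_MEL, -1.46 on HRAS_MEL, -0.51 on D6_MEL and -1.20 on the array labelled Melan A. The 0.29 was on the array labelled Liver, so these markers did not set the MEL arrays apart. On VA_MEF, 5 fibroblast markers of 10 had -2.003, against 0.03 on 3T3. The arrays are therefore called by their labels only.

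The range of a member over the 11 arrays had a median of 1.60, against 1.55 for all 7114 genes. It reached at least 1 for 47 of the 52 members, against 5638 of the 7114 genes, and at least 2 for 17 members, against 2388 genes. The widest was the small heat shock protein gene Hspb8, at 6.07, and the narrowest range was 0.594. Probes of the same gene differed by a median SD of 0.335 among the members and 0.382 among all genes.

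**Figure D1:**
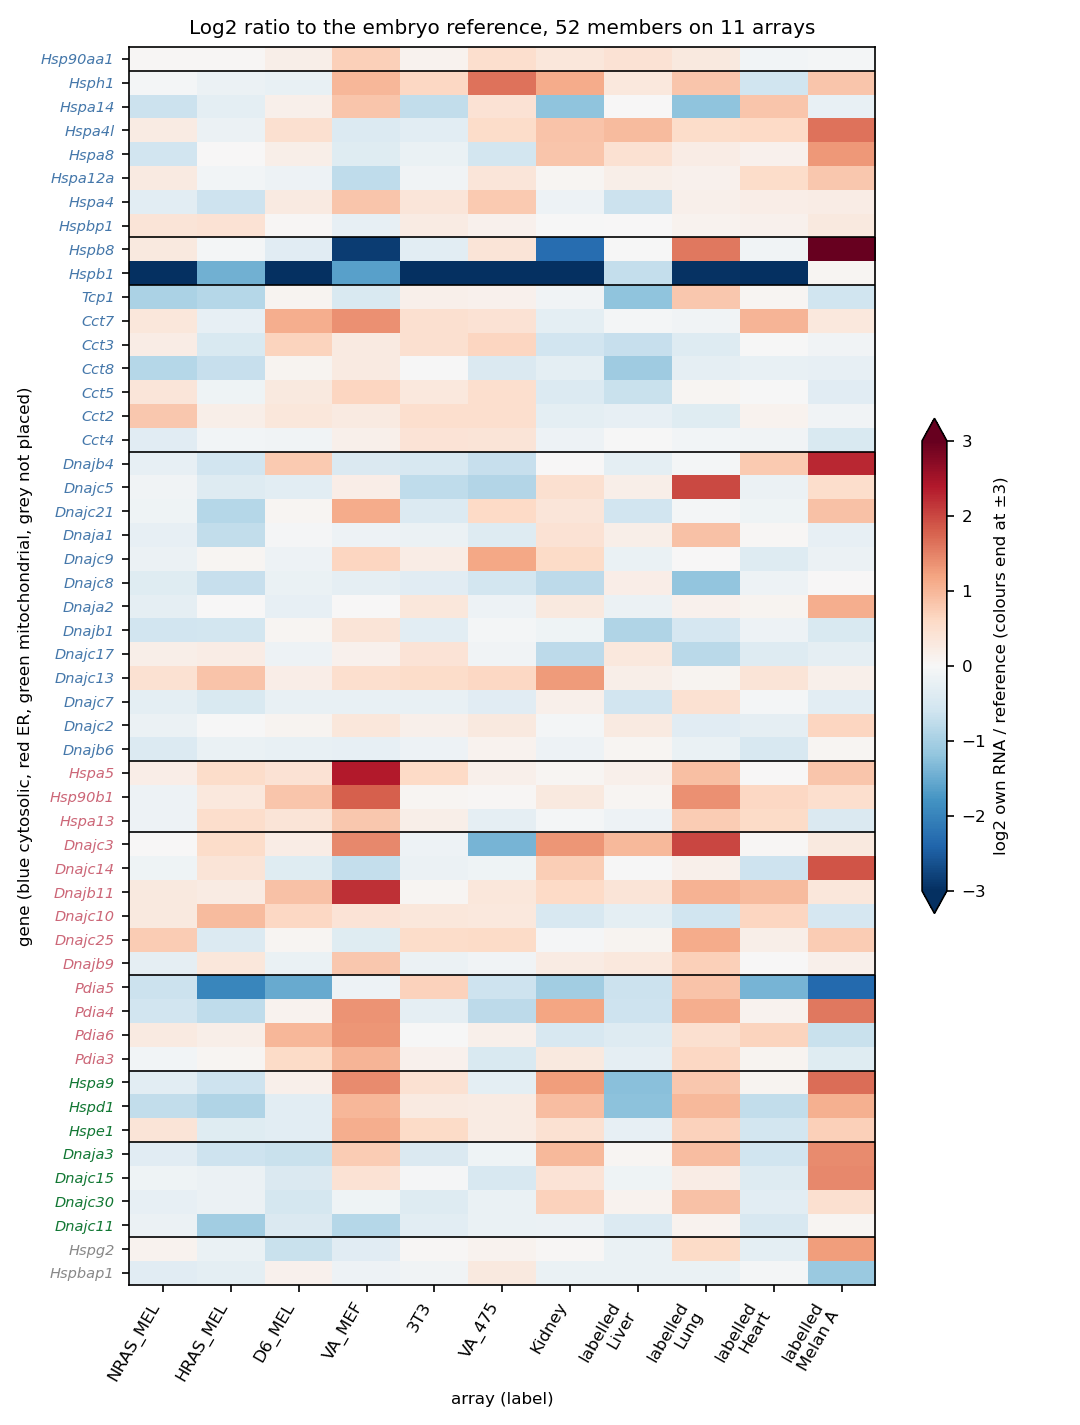
Log2 ratio of own RNA over the embryo reference (colour, ending at 3 on either side) for the 52 members (rows, grouped by role, with the widest range first in each group) on the 11 arrays (columns). The ER block is darkest red on VA_MEF and on the array labelled Lung, and the mitochondrial block on VA_MEF, Kidney and the arrays labelled Lung and Melan A.

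The median of the 13 ER members was highest on VA_MEF. Hspa5 encodes BiP, the HSP70 of the ER lumen, and stood at 2.37 on VA_MEF, against 0.19 on NRAS_MEL, 0.55 on HRAS_MEL, 0.42 on D6_MEL, 0.60 on 3T3 and 0.16 on VA_475. Hspa5 stood at 0.05 on Kidney and at 0.15, 0.91, 0.02 and 0.84 on the arrays labelled Liver, Lung, Heart and Melan A. No array lay below the reference, and VA_MEF lay above all others. The 3 probes of Hspa5 differed on Kidney, where 1 stood at -0.90 and the others at 0.59 and 0.46, and on the arrays labelled Liver and Lung likewise. The same probe stood at 0.07 on the array labelled Melan A, against 1.38 and 1.08. On 3T3 it was the higher one, at 1.33, against 0.33 and 0.15. On VA_MEF the 3 probes stood at 2.14, 2.49 and 2.49.

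Hsp90b1 encodes GRP94, the ER member of the HSP90 family. It stood at 1.79 on VA_MEF, against -0.16 on NRAS_MEL, 0.31 on HRAS_MEL, 0.82 on D6_MEL, 0.07 on 3T3 and 0.03 on VA_475, and reached 1.36 on the array labelled Lung. Dnajb11, an ER J protein that works with BiP, stood at 2.18 on VA_MEF, against 0.05 on 3T3, and at 1.05 on the array labelled Lung. Those arrays were the 2 highest for both genes. Hspa13, a further HSP70 of the ER, stood at 0.81 on VA_MEF and 0.77 on the array labelled Lung, and between -0.44 and 0.58 on the other 9 arrays. Dnajb9, a J protein that the unfolded protein response induces, stood at 0.80 on VA_MEF and 0.73 on the array labelled Lung, but its 2 probes disagreed. They stood at 0.38 and 1.22 on VA_MEF and at 0.83 and -1.17 on 3T3. The difference of VA_MEF from 3T3 was thus -0.45 by 1 probe and 2.39 by the other.

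Dnajc3 encodes P58IPK, a J protein that binds BiP in the ER lumen and had the widest range of the ER members. It stood at 2.01 on the array labelled Lung, 1.43 on VA_MEF, 1.32 on Kidney and 0.96 on the array labelled Liver, and at -1.40 on VA_475. The other 6 arrays lay between -0.14 and 0.54. Its 3 probes stood between 0.95 and 1.80 on VA_MEF and between -1.56 and -1.31 on VA_475. Dnajc14, a membrane J protein of the ER, did not share this pattern and was highest on the array labelled Melan A, at 1.89, and lowest on VA_MEF, at -0.72.

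The 4 disulfide isomerases did not move as a block. Pdia4 stood at 1.58 on the array labelled Melan A, 1.35 on VA_MEF, 1.18 on Kidney and 1.09 on the array labelled Lung, and at 0.10 or lower on the other 7. Pdia6 was highest on VA_MEF, at 1.32, and on D6_MEL, at 0.998. Pdia3, which acts on glycoproteins with calreticulin, was highest on VA_MEF, at 1.03. Pdia5 stood at 0.68 on 3T3 and 0.86 on the array labelled Lung, and below 0 on the other 9. It went down to -1.96 on HRAS_MEL, -1.51 on D6_MEL and -2.34 on the array labelled Melan A. Only on D6_MEL, VA_MEF and the array labelled Heart was its sign opposite to that of all the other Pdia genes. Its 2 probes lay on the same side of 0 on every array.

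Over the 13 ER members, the median stood at 1.03 on VA_MEF and 0.86 on the array labelled Lung, and between -0.11 and 0.38 on the other 9 arrays. On VA_MEF 7 of the 13 stood at least 2-fold above the reference, and on the array labelled Lung 5 of 13. Of all named genes, 5.05% stood that high on VA_MEF and 9.60% on the array labelled Lung. A list of other ER folding and unfolded protein response genes, 20 measured of 35 written, had its highest medians on the same arrays, at 0.80 on the array labelled Lung and 0.76 on VA_MEF. The liver markers were highest on the array labelled Lung and the 4 melanocyte markers on VA_MEF, and their part in these levels was not tested.

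Promoter sequences are shown for the members of this set that carry the ER stress element, the sequence through which ATF6 and its partners act in the unfolded protein response. RefSeq windows (GRCm38.p6) from 250 bases before to 50 after each start site were searched on both strands for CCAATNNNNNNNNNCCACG, which was present in 39 of 32851 windows of all genes (0.119%). Of the 52 members, 43 had a window, and 4 held the motif: Hspa5, Hsp90b1, Pdia6 and Dnajc3. Each stretch runs 5′ to 3′ on the strand of the gene, with the motif in capitals. The stretch of Hsp90b1 holds 2, the second on the opposite strand.
Hspa5, chr2:34771995-34772073, plus strand: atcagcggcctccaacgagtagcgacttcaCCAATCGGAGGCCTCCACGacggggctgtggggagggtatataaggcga
Hsp90b1, chr10:86705503-86705686, minus strand: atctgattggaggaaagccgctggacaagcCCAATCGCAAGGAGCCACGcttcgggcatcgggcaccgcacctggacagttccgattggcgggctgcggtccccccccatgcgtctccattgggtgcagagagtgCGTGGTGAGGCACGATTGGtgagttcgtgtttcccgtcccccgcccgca
Pdia6, chr12:17266461-17266539, plus strand: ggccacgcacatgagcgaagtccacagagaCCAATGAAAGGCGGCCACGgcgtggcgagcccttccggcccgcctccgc
Dnajc3, chr14:118937797-118937875, plus strand: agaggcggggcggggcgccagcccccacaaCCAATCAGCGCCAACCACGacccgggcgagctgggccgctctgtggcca
These 4 genes stood at 1.32 to 2.37 on VA_MEF. On the array labelled Lung they stood between 0.47 (Pdia6) and 2.01 (Dnajc3). The motif is a match of letters and does not show binding. Dnajb11, at 2.18 on VA_MEF, did not hold these letters in its window. The motif TGACGTG was present in 661 windows (2.01%) and in 2 members, Hspa5 and Dnajc25.

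The median of the 7 mitochondrial members was above 0 on the array labelled Melan A, the array labelled Lung, VA_MEF and Kidney, and below 0 on the other 7 arrays. Hspd1 encodes HSP60, the folding chamber of the matrix, and stood at 1.08 on the array labelled Melan A, 0.998 on VA_MEF, 0.96 on the array labelled Lung and 0.92 on Kidney. It stood at -0.73 on NRAS_MEL, -0.90 on HRAS_MEL, -0.31 on D6_MEL, 0.28 on 3T3, 0.23 on VA_475, -0.73 on the array labelled Heart and -1.23 on the array labelled Liver. The first 4 arrays lay above all others, and each of the 3 probes stood between 0.80 and 1.16 on them. Hspe1 encodes HSP10, the lid of that chamber, and stood at 1.09 on VA_MEF, 0.71 on the array labelled Melan A and 0.70 on the array labelled Lung. Hspe1 was lowest on the array labelled Heart, at -0.55. Hspa9, the matrix HSP70, stood at 1.68 on the array labelled Melan A, 1.43 on VA_MEF, 1.27 on Kidney, 0.82 on the array labelled Lung and -1.26 on the array labelled Liver.

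By 1 RefSeq start site of Hspd1, Hspd1 and Hspe1 lie head to head on chromosome 1, on opposite strands, and share the stretch between them. The start site of Hspe1 lies at 55088148 on the plus strand, and this start site of Hspd1 lies 216 bases away on the minus strand. A second start site of Hspd1 lies 95 bases away on the other side, so from it the genes overlap. The stretch is shown because it holds a pair of overlapping heat shock elements, in capitals below. The pair lies within the window of Hspe1 and that of the first Hspd1 start site, but not that of the second. The element is 3 alternating GAA and TTC units with 2 bases between them, searched on both strands. That motif was present in 198 of the 32851 windows (0.603%) and in 4 of the 43 members with a window, the others being Dnajb6 and Hsph1.
Hspe1, chr1:55088029-55088106, plus strand: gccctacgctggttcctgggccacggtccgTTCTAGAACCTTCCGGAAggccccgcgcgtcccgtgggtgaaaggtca
Across the 11 arrays, Hspd1 and Hspe1 had a Pearson correlation of 0.836 and a Spearman correlation of 0.882. Without the 2 arrays farthest from the median of Hspd1, Pearson's value was 0.784. Hspd1 and Hspa9 had a Pearson correlation of 0.913 and a Spearman correlation of 0.945, or 0.851 by Pearson without the 2 farthest arrays. All points share the reference RNA, and each is 1 array, so these values are descriptions.

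Of the mitochondrial J proteins, Dnaja3 (Tid1), a partner of the matrix HSP70, stood at 1.42 on the array labelled Melan A, 0.97 on Kidney, 0.93 on the array labelled Lung and 0.75 on VA_MEF, and at 0.06 or lower on the other 7. Dnajc15, a J protein of the inner membrane, was highest on the array labelled Melan A, at 1.43, and reached at most 0.43 elsewhere. Dnajc30 was highest on the array labelled Lung, at 0.87, and on Kidney, at 0.68. Dnajc11, which is linked to the cristae-organising complex, stayed at 0.11 or lower on every array and was lowest on HRAS_MEL, at -1.04. Over the 7 genes the median stood at 1.08 on the array labelled Melan A, 0.82 on the array labelled Lung, 0.75 on VA_MEF and 0.68 on Kidney, and between -0.61 and -0.04 on the other 7 arrays. On the array labelled Melan A, 4 of the 7 stood at least 2-fold above the reference, where 10.8% of all genes did.

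Other mitochondrial folding and protease genes, 12 measured of 13 written, had medians of 0.77 on the array labelled Melan A, 0.73 on the array labelled Lung and 0.53 on Kidney, but 0.06 on VA_MEF. The heart markers were at 3.77 on the array labelled Melan A, and their part in these levels was not tested. Hspa9 and the ER gene Pdia4 had a Pearson correlation of 0.924 and a Spearman correlation of 0.900 over the 11 arrays, and a Pearson correlation of 0.947 without the 2 farthest. Without VA_MEF, Pearson's value for Hspa9 and Pdia4 was 0.909. The pairs were picked and not ranked among all pairs. By comparison, Hspa5 and Hsp90b1 had a Pearson correlation of 0.794 and a Spearman correlation of 0.509. By Pearson that came to 0.531 without VA_MEF and to 0.204 without the 2 arrays farthest from the median of Hspa5. Hspa5 and Dnajb11 had a Pearson correlation of 0.748, which came to -0.00397 without VA_MEF, so that relation rests on VA_MEF.

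**Figure D2:**
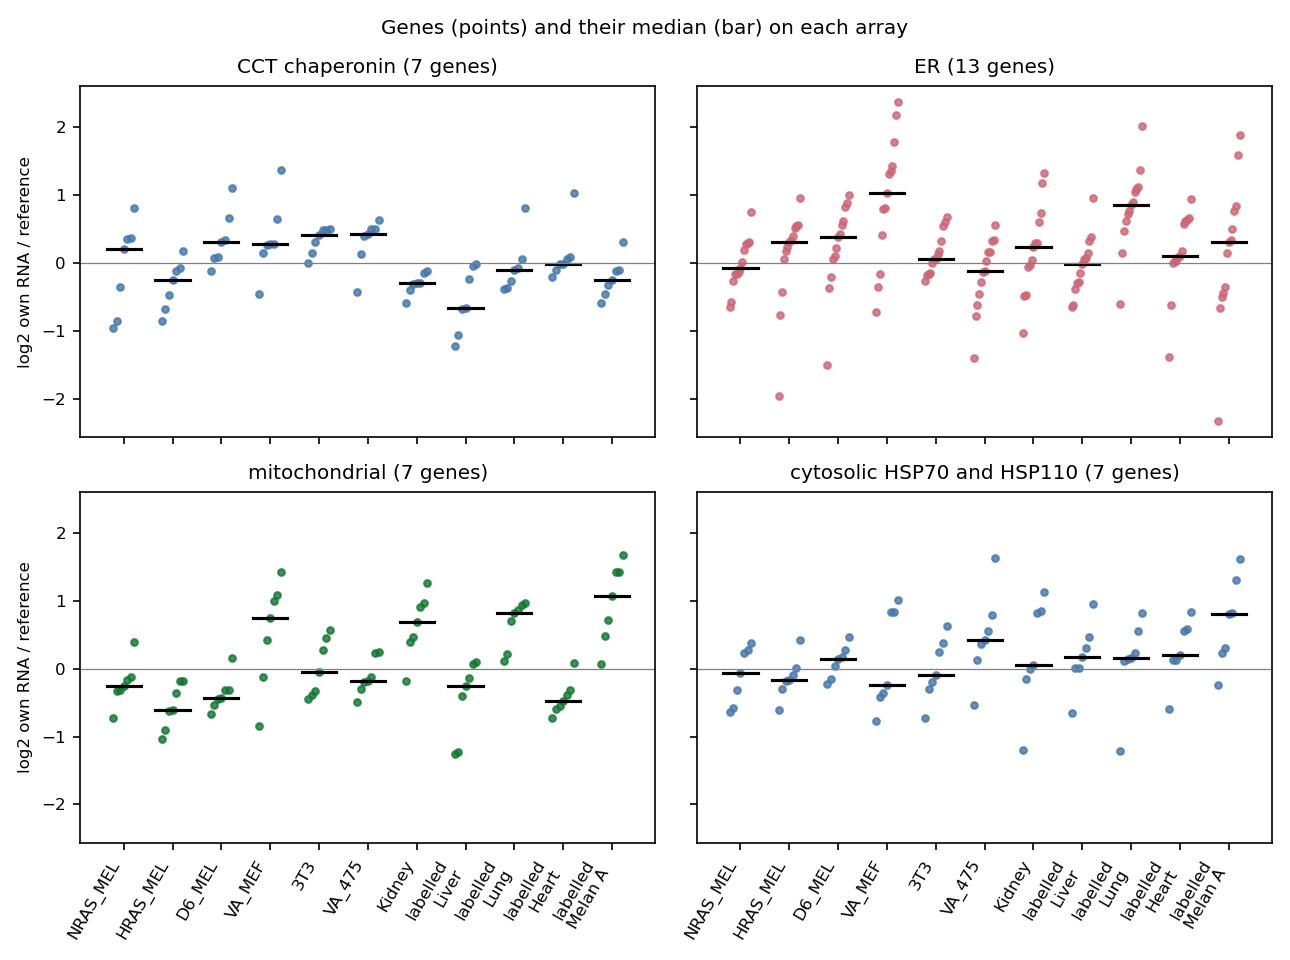
Log2 ratio of own RNA over the embryo reference (vertical axis) of each gene (points) and the median (bars) on the 11 arrays, for the CCT chaperonin, the ER members, the mitochondrial members and the cytosolic HSP70 and HSP110 genes. ER medians reach 1.03 on VA_MEF and 0.86 on the array labelled Lung, and mitochondrial medians reach 1.08 on the array labelled Melan A.

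The cytosolic members, in contrast, had a median between -0.19 and 0.32 on every array. Hsp90aa1, the stress-inducible cytosolic HSP90, was read by 7 probes and stood at 0.71 on VA_MEF, 0.51 on VA_475, 0.44 on the array labelled Liver, 0.34 on Kidney and 0.30 on the array labelled Lung. It lay between -0.08 and 0.17 on the other 6 arrays. Of its 7 probes, 1 stood at -0.28 on VA_MEF and the others between 0.62 and 1.16. Hspa8, the constitutive HSP70, stood at 1.31 on the array labelled Melan A and 0.82 on Kidney, and was lowest on NRAS_MEL, at -0.58, and VA_475, at -0.54. Hspa4l, an HSP110 gene, was also highest on the array labelled Melan A, at 1.62. Hsph1, the inducible HSP110 that exchanges nucleotide on HSP70, stood at 1.63 on VA_475, 1.12 on Kidney and 1.01 on VA_MEF, and was lowest on the array labelled Heart, at -0.59.

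Among cytosolic J proteins, Dnajb4 stood at 2.25 on the array labelled Melan A, then at 0.79 on D6_MEL and on the array labelled Heart, and between -0.68 and 0.02 on the other 8. Dnajc5, the cysteine string protein of secretory vesicles, stood at 1.99 on the array labelled Lung and at 0.53 or lower elsewhere. Dnajb1, the main heat-inducible J protein, ranged between -0.91 on the array labelled Liver and 0.40 on VA_MEF.

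Dnajc13, an endosomal J protein, stood above 0 on all 11 arrays and was highest on Kidney, at 1.27. Dnajc9, which acts as a histone chaperone, was highest on VA_475, at 1.16, and Dnajc21 on VA_MEF, at 1.11. Dnaja2, a further HSP70 partner, stood at 1.08 on the array labelled Melan A and between -0.28 and 0.33 elsewhere. Dnajc8 and Dnajc17, both linked to splicing, were lowest on the array labelled Lung, at -1.19 and -0.82, and on Kidney, at -0.78 and -0.79. Hspa14 was low on those arrays too, at -1.21 on the array labelled Lung and -1.20 on Kidney. Dnajc2, Dnajc7, Dnajb6 and Hspbp1, a nucleotide exchange factor of HSP70, had mean values between -0.58 and 0.65 on every array. However, the 2 probes of Dnajc2, of Dnajc7 and of Dnajb6 disagreed. On VA_MEF those of Dnajc2 stood at 1.76 and -1.06, and on NRAS_MEL those of Dnajb6 at -1.07 and 0.26. On the array labelled Lung those of Dnajc7 stood at -0.59 and 1.49. Hspa4, an HSP110, ranged between -0.66 on the array labelled Liver and 0.83 on VA_MEF, and the distant HSP70 relative Hspa12a between -0.77 on VA_MEF and 0.81 on the array labelled Melan A. Of the genes placed in no compartment, Hspg2 was highest on the array labelled Melan A, at 1.25, and Hspbap1 lowest there, at -1.11.

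The small heat shock proteins, which hold unfolded proteins without ATP, had the widest ranges, and each was read by 1 probe. Hspb1 (HSP25) lay far below the embryo reference on most arrays, at -3.19 on NRAS_MEL, -1.44 on HRAS_MEL, -4.70 on D6_MEL, -1.63 on VA_MEF, -3.96 on 3T3 and -5.82 on VA_475. It stood at -3.95 on Kidney and -0.70, -2.95 and -5.03 on the arrays labelled Liver, Lung and Heart. Only the array labelled Melan A, at 0.06, was level with the reference. Hspb8, which clears misfolded proteins with Bag3, ranged from -2.85 on VA_MEF and -2.28 on Kidney to 1.58 on the array labelled Lung and 3.23 on the array labelled Melan A, and lay between -0.34 and 0.38 on the other 7. Of the genes beside them in the HSP70 and HSP90 partner list, 18 measured of 24 written, the cochaperone Bag3 and the small heat shock protein Cryab were highest on the array labelled Melan A too, at 2.52 and 2.64. That array had the heart markers at 3.77, and their part was not tested.

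**Figure D3:**
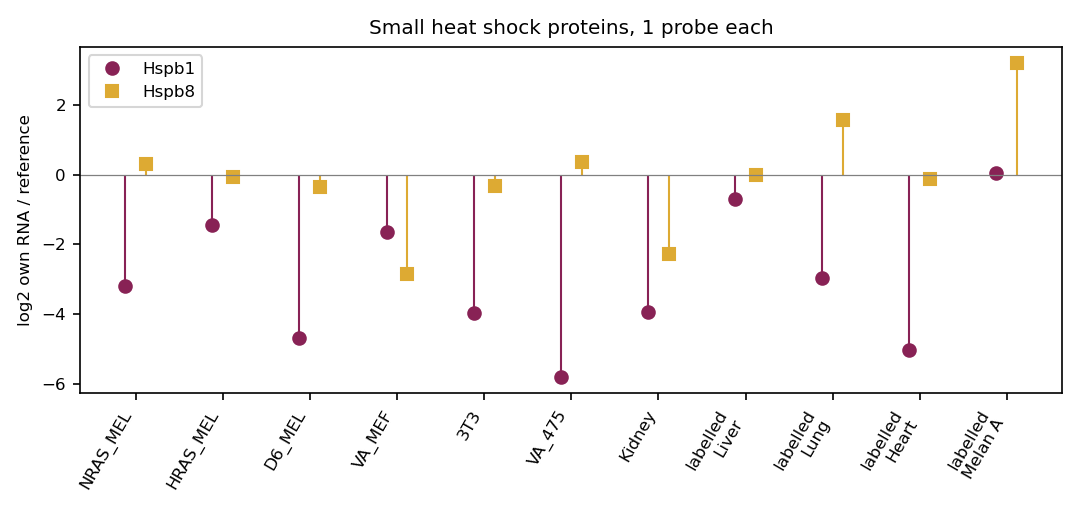
Log2 ratio of own RNA over the embryo reference (vertical axis) of Hspb1 (circles) and Hspb8 (squares) on the 11 arrays, 1 probe each. Hspb1 lies below 0 on all arrays but that labelled Melan A, and Hspb8 lies between -2.85 on VA_MEF and 3.23 on the array labelled Melan A.

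The 7 measured CCT subunits had medians of 0.43 on VA_475, 0.41 on 3T3, 0.30 on D6_MEL, 0.27 on VA_MEF and 0.21 on NRAS_MEL. On HRAS_MEL the median was -0.25. It stood at -0.29 on Kidney, -0.66 on the array labelled Liver, -0.11 on the array labelled Lung, -0.01 on the array labelled Heart and -0.26 on the array labelled Melan A. Cct3 and Cct5 had a Pearson correlation of 0.839 and a Spearman correlation of 0.818 over the 11 arrays, and Cct2 and Cct5 a Pearson correlation of 0.746 and a Spearman correlation of 0.727. No other pair of subunits was correlated. The mean of Tcp1, the founding subunit, was highest on the array labelled Lung, at 0.81, but its 3 probes disagreed. On that array they stood at 0.09, 0.32 and 2.04, and on the array labelled Melan A at 0.04, 0.03 and -1.85. Cct7 had the highest single values of the ring, 1.37 on VA_MEF and 1.10 on D6_MEL. Cct8 was lowest on the array labelled Liver, at -1.07, and on NRAS_MEL, at -0.85, while the mean of Cct4 stayed between -0.46 and 0.41. The 3 probes of Cct4 disagreed too: they stood at -1.13, -0.30 and 0.38 on NRAS_MEL and at 0.24, 0.82 and -0.63 on VA_MEF.

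Cultured lines were then set against organs. The arrays labelled Heart and Melan A were left out because marker genes went against both labels. VA_475 was left out because the labels give no cell type. The arrays labelled Liver and Lung, also doubted, stayed in 1 class whichever is which. The lines were NRAS_MEL, HRAS_MEL, D6_MEL, VA_MEF and 3T3, and the organs were Kidney and the arrays labelled Liver and Lung. Lines and organs stood in for replicates, so the p-values set the difference against the spread between lines and between organs. D6_MEL and NRAS_MEL share a code in the descriptions and may not be independent, which the fit did not take into account. Across 7089 genes, limma with Benjamini-Hochberg adjustment at 0.05 called 2.84% of genes higher and 3.7% lower in lines, 6.53% in all. All 52 members were tested, and 1 was called higher and 0 lower, a share of 1.92%. At an unadjusted p under 0.05 there were 11 of 52 members, 4 higher and 7 lower, against 27.4% of all genes. The 11 are 21.2% of the members. Both shares lay below those of all genes, but on small counts, and the gap was not tested. With the arrays labelled Heart and Melan A kept as labelled, limma called 0 members and 0 of all genes, so these calls depend on leaving them out.

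The gene that passed was Dnajc10, which encodes ERdj5, a J protein and disulfide reductase of the ER. It stood at 0.30 on NRAS_MEL, 0.96 on HRAS_MEL, 0.63 on D6_MEL, 0.41 on VA_MEF and 0.33 on 3T3, against -0.47 on Kidney, -0.30 on the array labelled Liver and -0.60 on the array labelled Lung. All 5 lines lay above all 3 organs, for each of its 2 probes. The means were 0.525 in lines and -0.457 in organs, a difference of 0.98 (SE 0.21, 95% interval 0.506 to 1.459, adjusted p = 0.0295 by limma). Of the arrays outside the fit, VA_475 stood at 0.32 and the array labelled Heart at 0.63, while the array labelled Melan A stood at -0.50. The call was lost in limma without 3T3 (adjusted p = 0.0615), D6_MEL (0.069), NRAS_MEL (0.0511), Kidney (0.0972) or the array labelled Lung (0.0911), with the difference between 0.91 and 1.04. It was also lost with 1 probe per gene (difference 0.81, adjusted p = 0.0521 by limma) and with the arrays labelled Heart and Melan A kept as labelled (0.54, adjusted p = 0.612 by limma).

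Every line lay above every organ for 2 members, Dnajc10 and Cct2, where 8.89% of all genes did so. Every line lay below every organ, by the mean of a gene's probes, for 4 members, Dnajc30, Hspa4l, Dnaja1 and Hspa8, where 10.2% of all genes did so. None of those besides Dnajc10 passed the adjusted threshold of limma. Cct2 stood at 0.81, 0.17, 0.34, 0.28 and 0.50 on NRAS_MEL, HRAS_MEL, D6_MEL, VA_MEF and 3T3, against -0.29, -0.23 and -0.37 on Kidney and the arrays labelled Liver and Lung. The difference was 0.72 (SE 0.20, adjusted p = 0.0619 by limma). Its 2 probes gave different sizes: 1 lay between 0.56 and 1.42 in the lines and the other between -0.22 and 0.20, against -0.32 to -0.28 and -0.45 to -0.15 in the organs.

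Dnajc30 had a difference of -0.85 (adjusted p = 0.055 by limma), Hspa4l of -0.83 (0.0789), Dnaja1 of -0.76 (0.0826) and Hspa8 of -0.70 (0.101). Dnaja1, a J protein partner of Hspa8, stood at -0.25, -0.73, -0.04, -0.15 and -0.18 on NRAS_MEL, HRAS_MEL, D6_MEL, VA_MEF and 3T3, against 0.43, 0.17 and 0.88 on Kidney and the arrays labelled Liver and Lung. Hspa8 stood at -0.58, 0.00, 0.17, -0.37 and -0.20 on the lines in that order, against 0.82, 0.46 and 0.23 on the organs. Some single probes did not keep the classes apart. A probe of Hspa8 stood at 0.06 on D6_MEL and 0.04 on the array labelled Liver. Another stood at 0.24 on D6_MEL and 0.03 on the array labelled Lung. A probe of Dnaja1 stood at -0.07 on both D6_MEL and the array labelled Liver. The J proteins Dnaja2 and Dnajb1, which also work with HSP70, had differences of -0.12 and 0.31. Cct3 (0.78, adjusted p = 0.104), Cct5 (0.64, 0.132) and Cct7 (0.76, 0.199) had positive differences, and Dnajc5 (-1.16, 0.113) a negative one, all by limma and all with overlap between the classes.

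By group, the median difference was 0.64 for the CCT subunits, with 6 of 7 above 0, and -0.35 for the mitochondrial members, with 7 of 7 below 0. It was -0.01 for the ER members and 0.01 for the cytosolic members, against -0.03 for all genes. Of all 7089 genes, 3389 lay above 0 and 3700 below. Among the mitochondrial members, Hspe1 (-0.03) and Hspa9 (-0.05) lay near the median of all genes. With the arrays labelled Heart and Melan A kept as labelled, the mitochondrial median was 0.09, and limma called 0 of 52 members and 0 of all genes. Among the other chaperone lists, limma called 2 genes, both higher in lines. The mitochondrial protease gene Htra2 stood at 0.90 to 1.53 in the 5 lines, against -0.03, 0.28 and 0.07 in the organs (difference 1.03, adjusted p = 0.0246 by limma). The prefoldin subunit gene Vbp1, whose complex hands actin and tubulin to CCT, stood at 0.04 to 0.69 in the lines, against -0.46, -1.24 and -0.79 in the organs (difference 1.16, adjusted p = 0.0291 by limma). In all, 0 of 20 ER folding and unfolded protein response genes, 0 of 18 HSP90 and HSP70 partners, 1 of 12 mitochondrial genes and 1 of 5 prefoldin genes passed. Erythroid markers (Hbb-b1 and Alas2, 2 of 5) had medians of -7.14 to -6.26 in the lines and -3.20 to -0.04 in the organs, and their part in these differences was not tested.

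**Figure D4:**
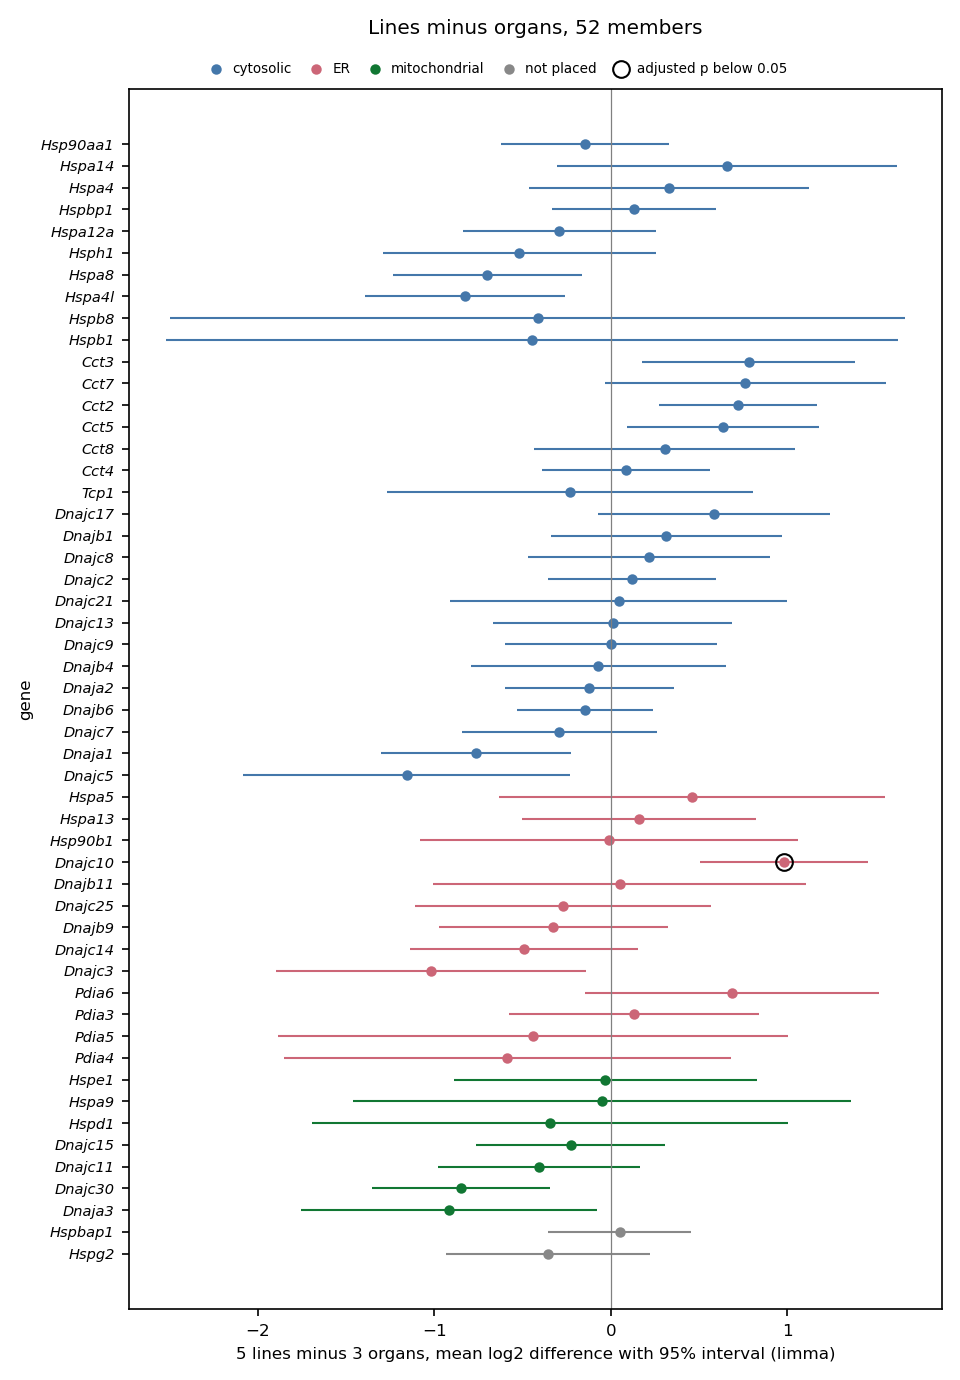
Mean log2 difference of 5 lines minus 3 organs (horizontal axis) with 95% intervals from limma for the 52 members, coloured by compartment. The circled gene, Dnajc10 at 0.98, is the 1 member with an adjusted p below 0.05. All 7 mitochondrial points lie below 0, with Hspe1 at -0.03 and Hspa9 at -0.05 close to it.

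The lines named for RAS isoforms, NRAS_MEL and HRAS_MEL, were set against D6_MEL, as single arrays and with no test. Both comparisons use the same D6_MEL array. In NRAS_MEL, 1 of 52 members was at least 2-fold higher and 2 were at least 2-fold lower than in D6_MEL, where 2.46% and 4.4% of 7069 genes were. Hspb1 was the higher one, at -3.19 in NRAS_MEL, against -4.70 in D6_MEL (difference 1.51). Tcp1 stood at -0.96 in NRAS_MEL, against 0.09 in D6_MEL (difference -1.04, or -1.41 to -0.65 over its 3 probes). Dnajb4 stood at -0.24 in NRAS_MEL, against 0.79 in D6_MEL (difference -1.03). Hsp90b1 came just short of 2-fold, at -0.16 in NRAS_MEL, against 0.82 in D6_MEL. The median difference over the members was -0.18, against 0.02 over all genes.

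In HRAS_MEL, 1 member was at least 2-fold higher and 3 were at least 2-fold lower than in D6_MEL, where 5.23% and 5.91% of 7078 genes were. Hspb1 stood at -1.44 in HRAS_MEL, against -4.70 in D6_MEL (difference 3.26). Dnajb4 stood at -0.58 in HRAS_MEL, against 0.79 in D6_MEL (difference -1.37). The chaperonin subunits Cct7 and Cct3 stood at -0.25 and -0.47 in HRAS_MEL, against 1.10 and 0.66 in D6_MEL. Their differences were -1.35 over 4 probes (-1.54 to -1.12) and -1.13 over 5 probes (-1.36 to -0.94), so every probe had the same sign. The 7 CCT subunits had a median difference of -0.76, with 6 below 0, and the 4 Pdia genes all lay below 0, with a median of -0.67. The medians were above 0 for the ER J proteins (0.32, with 4 of 6 above 0), the 3 ER HSP70 and HSP90 genes (0.13) and the 4 mitochondrial J proteins (0.14). The median was -0.17 over all members, against -0.01 over all genes.

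In NRAS_MEL against HRAS_MEL, 2 members were at least 2-fold higher and 1 was lower, where 4.27% and 5.08% of 7073 genes were. Pdia5 stood at -0.65 in NRAS_MEL, against -1.96 in HRAS_MEL (difference 1.30). Dnajc25, an ER J protein read by 1 probe, stood at 0.75 in NRAS_MEL, against -0.42 in HRAS_MEL (difference 1.18). Hspb1 differed by -1.76. The members' median difference was 0.05, against 0.02 over all genes. These counts lie near those of all genes, and with 1 array each the difference has no replicate check.

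VA_MEF was set against 3T3, a comparison added after its values were seen, so its direction is a description. In VA_MEF 10 of 52 members were at least 2-fold higher and 1 was lower, where 5.87% and 7.89% of 7088 genes were. Of the 10, 6 were ER genes: Dnajb11 (difference 2.13), Hspa5 (1.77, or 0.81 to 2.34 over 3 probes), Hsp90b1 (1.72), Pdia4 (1.63), Dnajc3 (1.57, or 1.25 to 1.95 over 3 probes) and Pdia6 (1.33). The others were Hspb1 (2.33), Hspa14, a ribosome-associated HSP70 (1.57), Dnajc21, a ribosome biogenesis J protein (1.52), and Dnaja3 (1.20). Hspb8 was the lower one, at -2.85 in VA_MEF, against -0.31 in 3T3. Dnajb11, Pdia4, Hspb1, Hspa14, Dnaja3 and Hspb8 were each read by 1 probe. The median difference was 0.97 over the 13 ER members, 0.53 over the mitochondrial, 0.04 over the cytosolic and -0.02 over all genes.

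In the list of other ER folding and unfolded protein response genes, 10 of 20 were at least 2-fold higher in VA_MEF than in 3T3 and 0 lower, with a median difference of 0.98. Creld2, an ER stress-induced protein, stood at 3.14 in VA_MEF, against 0.22 in 3T3. Edem1, which takes misfolded glycoproteins to degradation, stood at 1.92 in VA_MEF, against 0.10 in 3T3. Manf stood at 2.19 in VA_MEF, against 0.45 in 3T3. Of the response's transcription factors, Atf4 stood at 2.06 in VA_MEF, against 0.79 in 3T3, and Atf6 at 1.37 in VA_MEF, against 0.31 in 3T3. Xbp1 stood at 0.35 in VA_MEF, against -0.67 in 3T3. The melanocyte markers had a median of 0.71 in VA_MEF, against -1.13 in 3T3, and the fibroblast markers -2.003 in VA_MEF, against 0.03 in 3T3. Their part in these differences was not tested.

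**Figure D5:**
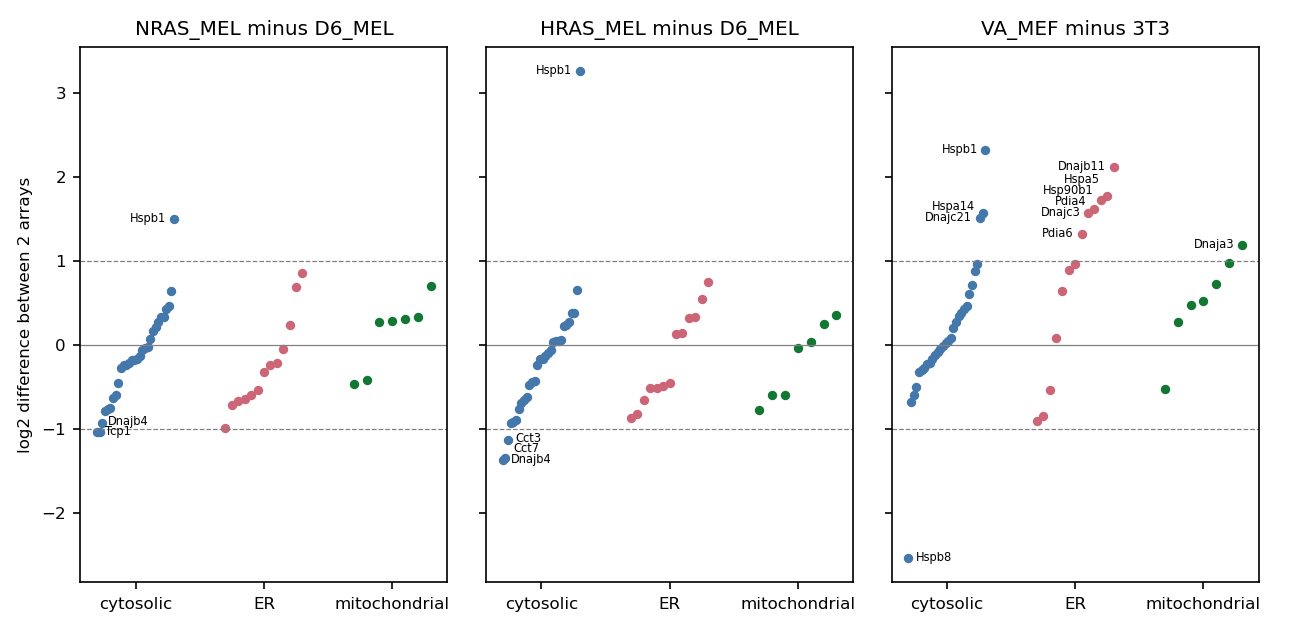
Log2 difference between 2 arrays (vertical axis) for the cytosolic, ER and mitochondrial members, with members at least 2-fold apart named and the dashed lines at 2-fold. Members beyond 2-fold number 3 in NRAS_MEL minus D6_MEL, 4 in HRAS_MEL minus D6_MEL and 11 in VA_MEF minus 3T3, where 6 of the 13 ER points lie above the upper line.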

How the data were processed

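RNA of 11 mouse samples was extracted with Trizol, labelled with Cy3 by reverse transcription and hybridised beside a Cy5-labelled mouse embryo reference, per the labels; dyes were not swapped. The authors deposited log ratios, taken here as log2, for 15247 probes; how they were background-corrected and normalized, and the base, is not given in the sources used here. Each array had values for 15170 to 15210 probes, and column medians lay between -0.03 and 0.03. Without intensities the signal over background is not known, and precision is limited by the number of arrays.

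Signs were turned, since organ markers then lie high in 1 array each. The platform annotation gave 1 symbol for 9600 probes, several for 214 and none for 5433; 9492 matched RefSeq by gene number and 0 symbols changed. Arrays were centred on their median and probes averaged per gene. limma 3.58.1 (R 4.3.3; lmFit, eBayes, Benjamini-Hochberg) was fitted to genes with at least 3 line and 2 organ values, and was checked on simulated data. Named were members past the threshold or with the 5 smallest p in each direction, the 4 with the widest range per compartment, members at least 2-fold apart, and other chaperone genes past the threshold; further members of each group were named after their values were seen. Members, lists and tests were chosen with earlier results of these data known. Alternatives covered probes, centring, trend, the arrays used and the sign. Protein sequences were not used here.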

Additional observations from a re-analysis of the deposited data

Results flagged for a closer look

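Among the 5 lines, the highest or lowest array of each of the 52 members and 4 compartment or group medians was compared with the other 4, and 5 of the 56 values stood apart by Dixon's criterion (a gap over range of 0.71 for 5 samples). The criterion is set for about 1 in 20 among replicates, which these lines are not. The share of all genes that it flags was not computed, so the count is a description. VA_MEF was the array apart in 4 of the 5. Over all probes it also had the widest SD of the lines, 1.02, against 0.84 to 0.91 on the others. The BiP gene Hspa5 stood at 2.37 on VA_MEF and between 0.19 and 0.60 on the other lines. The cytosolic HSP90 gene Hsp90aa1 stood at 0.712 on VA_MEF and between 0.03 and 0.17 on the others. The mitochondrial J protein gene Dnaja3 stood at 0.753 on VA_MEF and between -0.66 and -0.33 on the others. The small heat shock protein gene Hspb8 stood at -2.85 on VA_MEF and between -0.34 and 0.30 on the others. The J protein gene Dnajb4 stood at 0.790 on D6_MEL and between -0.58 and -0.24 on the others.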

How the results depend on the processing

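No paired analysis was possible because each label has 1 array. The limma count of members called in lines against organs was 1 of 52, and it was 2 with a trended prior (Dnajc10 and Dnajc30, 518 of all genes), 4 with VA_475 among the lines (with Cct2 and Dnaja1, 800 of all genes) and 0 with the arrays labelled Heart and Melan A kept as labelled (0 of all genes). It ran from 0 to 5 when single arrays were left out: 0 without 3T3, D6_MEL, NRAS_MEL, Kidney or the array labelled Lung, 2 without HRAS_MEL or VA_MEF, and 5 without the array labelled Liver, where all genes called numbered 986, against 463 with every array. Counts by direction were split after the data were seen. Called higher, 1 member became 2 with VA_475, 0 as labelled and 0 with the sign as deposited, and 0 to 2 without single arrays. Called lower, 0 became 1 with the trended prior, 2 with VA_475 and 1 with the sign as deposited, and 0 to 3 without single arrays. With 1 probe per gene the member called was Cct2 (adjusted p = 0.0258), not Dnajc10 (0.0521). Over 16 settings Dnajc10 differed by 0.54 to 1.06 and was called in 9, with adjusted p between 0.0179 and 0.612; the cause was not tested. Group medians moved by less than the spread over genes: 0.42 to 0.74 for CCT, -0.31 to 0.24 for ER, -0.82 to 0.09 for mitochondrial and -0.09 to 0.12 for cytosolic members. Counts of members 2-fold apart between single arrays stayed within 1.5 times, and for VA_MEF ran from 11 to 15, the highest with D6_MEL in place of 3T3. With 1 array per label no difference between single arrays has an error.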
